A study of Rattus norvegicus with 9 samples.

Results

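The subunits of oxidative phosphorylation were followed across 9 RNA-seq libraries of whole rat liver. Rows were chosen by name, as the nuclear subunit families Nduf, Sdh, Uqcr, Cox and Atp5 together with the mitochondrial rows ATP6 and ATP8, with no threshold on a measured difference. The families themselves were picked with earlier results of these data known. Of 40154 gene rows, 97 matched these names, and 80 of the 97 reached at least 1 RPKM (reads scaled by gene model length and library size) in 3 or more libraries. These 80 members, 78 nuclear and 2 mitochondrial, are among the 11124 genes that passed the same filter and were tested, and the other 17 rows were too low.

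There were 3 libraries in each of 3 groups, all from wild-type Sprague-Dawley rats of 5 months. HepLPC livers came from rats made cirrhotic with carbon tetrachloride (CCl4), a liver toxin, and given an injection of HepLPCs, progenitor-like liver cells derived from rat hepatocytes. PBS livers came from rats made cirrhotic with CCl4 and injected with phosphate-buffered saline. Normal livers had neither CCl4 nor an injection, so PBS and normal livers differ in both, and toxin and injection cannot be told apart between them. The injected cells and the host are both rat and their transcripts cannot be told apart. No label says that the replicates are separate animals, so each p-value reflects only how far these samples scatter, and that scatter may be partly technical. In bulk tissue, fewer cells of a type and less RNA per cell also cannot be told apart.

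The respiratory chain passes electrons from NADH (complex I) and succinate (complex II) through complex III to oxygen at complex IV, and complexes I, III and IV pump protons across the inner mitochondrial membrane. The proton gradient then drives ATP synthase (complex V), a membrane rotor coupled to a catalytic head. Complex II is wholly nuclear-encoded, while the other complexes join nuclear subunits with a few encoded in mitochondrial DNA. Hepatocytes are rich in mitochondria and use this ATP for urea synthesis, glucose production and protein secretion.

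The 80 members that passed held 34 nuclear subunits of complex I, 4 of complex II, 8 of complex III, 11 of complex IV and 15 of complex V, besides ATP6 and ATP8. A further 6 rows match the names without being subunits, namely Atp5s and Atp5sl (now Dmac2l and Dmac2), Cox7a2l (a factor that joins complexes III and IV), and the copies Uqcrb-ps1, Ndufa10l1 and Cox7a2l2. The lowest row that passed was Ndufs6, a complex I accessory subunit, with 0.442, 1.47 and 0.491 RPKM in HepLPC, 0.959, 0.829 and 0.577 RPKM in PBS and 0.143, 1.44 and 1.06 RPKM in normal livers. Just outside the filter lay the copy Ndufv3-ps1, which reached 1 RPKM in 2 libraries. The median gene model of the 78 nuclear members was 701.5 bases long, against 2592 bases over all tested genes, and the shortest member of all was ATP8 with 204 bases.

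Of the complex IV isoforms, those known from liver were the ones expressed. Cox4i1, the common form of a regulatory subunit whose counterpart Cox4i2 is known from lung, was the highest complex IV row, at 386 ± 140.3 RPKM in HepLPC, 321 ± 60.7 in PBS and 343 ± 35.6 in normal livers (SD, n = 3 each). Cox6a1, Cox7a2, Cox8a and Ndufa4 were all above 100 RPKM in every library. Their counterparts Cox6a2, Cox7a1 and Cox8b, best known from heart and skeletal muscle, and Ndufa4l2, best known as a hypoxia-responsive gene, stayed below the filter. No library exceeded 1 RPKM for Cox4i2, Cox6a2, Cox7a1, Cox8b, Ndufa4l2 or the testis isoform Cox6b2. Striated muscle markers were also near 0, with Myh4 and Mb at 0 in all libraries.

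A few constitutive subunits had unusually low rows. Cox6b1, an intermembrane-space subunit of complex IV, had 3.17, 7.35 and 4.36 RPKM in HepLPC, 5.09, 3.21 and 3.23 RPKM in PBS and 3.56, 3.49 and 4.91 RPKM in normal livers. Ndufa13 and Ndufa1, accessory subunits of complex I, reached at most 0.215 and 1.34 RPKM in any library. Of the 10 rows of pseudogenes or copies, 7 were below the filter. Uqcrb-ps1 was the best filled of the other 3: this copy of the complex III subunit gene Uqcrb had 46.2, 73.3 and 41.2 RPKM in HepLPC, 55.4, 42.9 and 46.5 RPKM in PBS and 44.6, 52.4 and 50.3 RPKM in normal livers, above Uqcrb itself in every library. No source used here gives how reads shared by near-identical sequences were assigned, so the levels of these rows are uncertain.

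Promoters are shown for Cox5b, Ndufa12 and Sdhd, the 3 members called lower in PBS than in normal livers in both of 2 alternative fits. The first leaves out PBS replicate 1 and HepLPC replicate 2, and the second removes a trend against gene length. Atp5e is added because its value in HepLPC replicate 2 stood highest above its group among complex V subunits. Each is 300 bases of the RefSeq assembly GRCr8, from 250 bases before to 50 after the annotated start, printed in the direction of the gene. Capitals mark matches, on either strand, to the letters TGCGCA (the core of the NRF1 site), CCGGAAG (an ETS site), AAGATGG (a YY1 site) and AAGGTCA (an ERR site), all motifs known from promoters of respiratory genes.
Cox5b (chr9:46417587-46417886, plus strand): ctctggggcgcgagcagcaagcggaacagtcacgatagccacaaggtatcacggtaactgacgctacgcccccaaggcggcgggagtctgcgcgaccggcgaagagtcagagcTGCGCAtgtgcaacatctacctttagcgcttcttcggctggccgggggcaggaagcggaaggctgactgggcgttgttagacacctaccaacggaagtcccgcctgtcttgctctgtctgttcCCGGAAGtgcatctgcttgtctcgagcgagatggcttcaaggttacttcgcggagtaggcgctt
Ndufa12 (chr7:30658066-30658365, plus strand): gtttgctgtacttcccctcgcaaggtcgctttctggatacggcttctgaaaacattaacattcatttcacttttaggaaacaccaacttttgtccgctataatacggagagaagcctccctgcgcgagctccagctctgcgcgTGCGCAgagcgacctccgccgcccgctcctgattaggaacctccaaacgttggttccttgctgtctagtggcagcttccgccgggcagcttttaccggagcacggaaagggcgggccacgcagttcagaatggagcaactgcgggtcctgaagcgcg
Sdhd (chr8:59850592-59850891, minus strand): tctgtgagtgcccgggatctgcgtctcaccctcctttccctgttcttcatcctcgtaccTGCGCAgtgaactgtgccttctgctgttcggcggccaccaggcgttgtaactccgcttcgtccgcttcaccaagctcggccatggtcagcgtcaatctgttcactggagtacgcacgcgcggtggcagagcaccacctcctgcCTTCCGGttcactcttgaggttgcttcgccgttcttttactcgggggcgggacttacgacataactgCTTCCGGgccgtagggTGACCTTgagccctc
Atp5e, now Atp5f1e (chr3:183680123-183680422, minus strand): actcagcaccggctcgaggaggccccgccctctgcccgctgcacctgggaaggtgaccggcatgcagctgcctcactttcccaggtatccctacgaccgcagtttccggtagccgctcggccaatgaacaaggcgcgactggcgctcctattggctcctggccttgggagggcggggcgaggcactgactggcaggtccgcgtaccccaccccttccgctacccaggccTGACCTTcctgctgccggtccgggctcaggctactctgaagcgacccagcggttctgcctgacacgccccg
Cox5b holds the NRF1 core at -137 and an ETS match at -14, counted to the first base of the match from the annotated start, which is 0. Ndufa12 holds the NRF1 core at -107, and Sdhd holds it at -191, with ETS matches at -48 and 19 and an ERR site at 35. Atp5e holds an ERR site at -21 and none of the other letters.

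Promoters were found for 67 of the 78 nuclear members. The NRF1 core was present in 20 of the 67 (29.9%), against 7.24% of all 33469 promoters in the table. ETS letters were present in 18 (26.9% against 8.75%), YY1 letters in 18 (26.9% against 7.01%) and the ERR site in 11 (16.4% against 4.61%). The members' promoters had a median GC content of 56.3%, against 51.7% over all promoters, and matches to GC-rich letters move with it. These are descriptions of letters in a fixed window, with no measurement of binding.

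Depth was 17.4 to 21.8 M recovered reads per library, and no replicate pair agreed within sampling noise. Hepatocyte markers summed to 83540 to 97540 RPKM in HepLPC, 76320 to 85380 in PBS and 82220 to 99290 in normal livers, with 8 of 8 tested and none called (0 by limma in each comparison, and at an unadjusted p under 0.05 only Apoa1 in PBS against normal and Ttr in HepLPC against PBS livers). Cholangiocyte markers summed to 10.3 to 19.9 RPKM in HepLPC, 49.1 to 175.9 in PBS and 8.70 to 10.4 in normal livers, and 5 of 5 were called higher in PBS than in normal livers and lower in HepLPC than in PBS livers. Stellate and myofibroblast markers summed to 47.6 to 68.8 RPKM in HepLPC, 76.8 to 129 in PBS and 28.1 to 31.8 in normal livers, with 4 of 7 called higher in PBS than in normal livers and 2 lower in HepLPC than in PBS livers. Of all tested genes, 10.4% were called higher in PBS than in normal livers and 2.93% lower in HepLPC than in PBS livers. No marker of these 3 lists was at 0 in all libraries. The part of the non-hepatocyte cells in the subunit values was not tested.

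A pair of libraries stood apart for the nuclear subunits. HepLPC replicate 2 was the highest of all 9 libraries for 66 of the 78 nuclear members and for 11 of 11 in complex IV. PBS replicate 1 was the highest of its group for 72 of the 78. Over all 11124 tested genes these libraries were so placed in 1719 and 3268 genes. Over the 1215 tested genes of 1000 bases or less the counts were 508 and 755. As a percentage of the mean of normal livers, the median nuclear member was at 88.5, 161 and 93.9 in HepLPC replicates 1, 2 and 3, at 116 in PBS replicate 1, and at 88.7 and 85.7 in PBS replicates 2 and 3. The same measure over all tested genes was 104, 96.0 and 111 in HepLPC livers and 109, 120.5 and 124 in PBS livers.

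**Figure D1:**
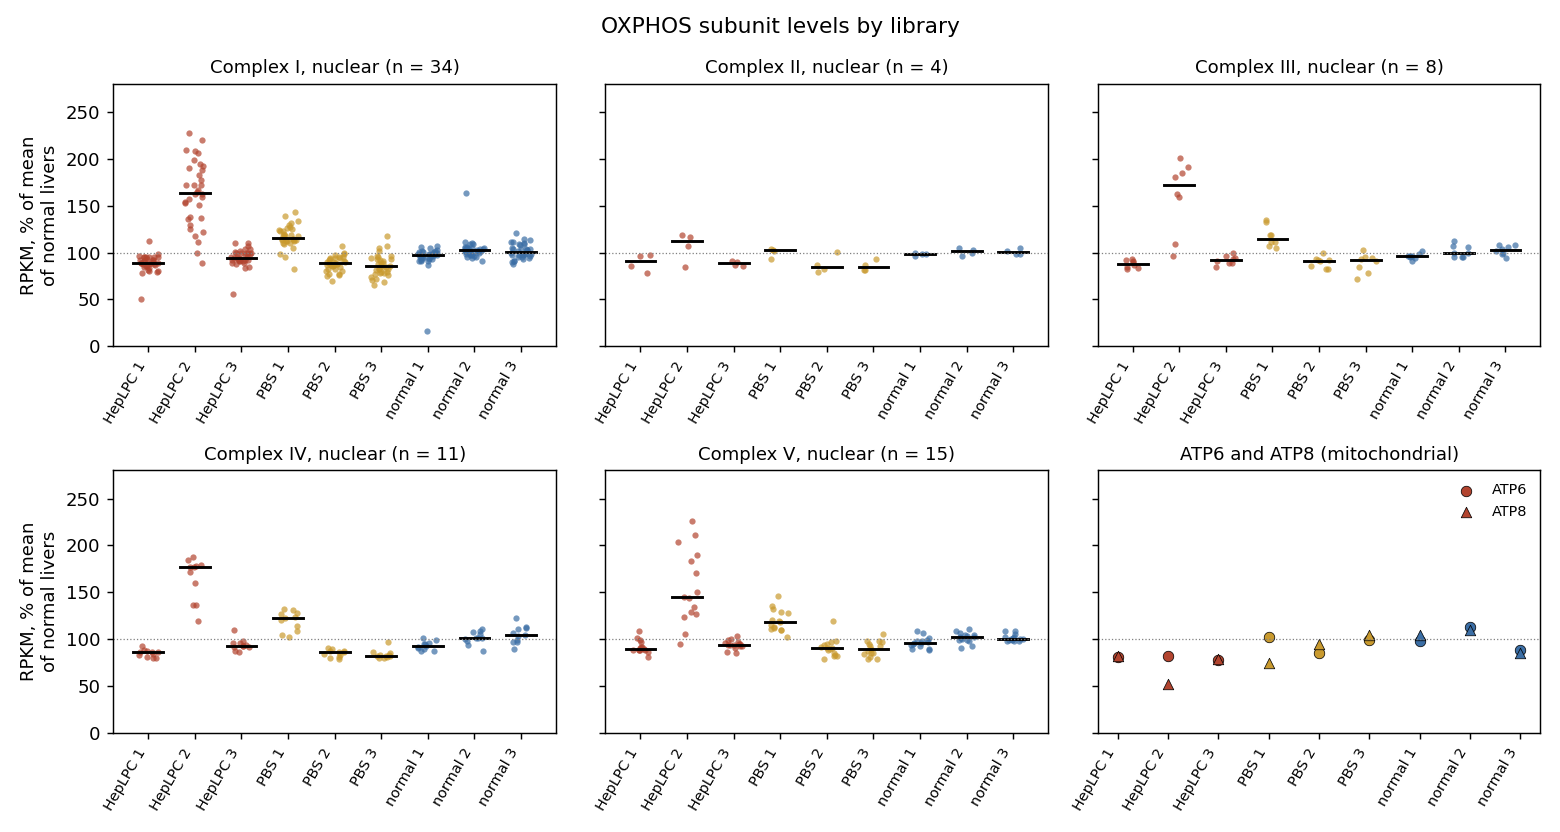
Levels of the OXPHOS subunits in each library, as a percentage of the gene's mean in normal livers, by complex. Each point is a gene, bars are medians, circles and triangles in the last panel are ATP6 and ATP8. HepLPC replicate 2 lies high in all nuclear panels, least in complex II (median 112%), and low for ATP8 (52.3%).

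The excess in these libraries went with gene length and did not take in every complex to the same extent. Across the 78 nuclear members, the deviation from the other 2 libraries of the group was related to length with a Spearman correlation of -0.626 in HepLPC replicate 2 and -0.583 in PBS replicate 1, as a description over genes that share a library. Members of up to 500 bases lay 0.98 above the other HepLPC libraries on log2(RPKM + 1), in the median, and 0.53 above the other PBS libraries. Over 1500 and up to 2500 bases the medians were 0.17 and 0.23. All tested genes of those lengths had medians of 0.44 and 0.31 for the short bin, and -0.0031 and 0.02 for the long one, so members lay above genes of like length in both libraries. After a trend against length was removed from every library, the median nuclear member still lay 0.50 above the others in HepLPC replicate 2 and 0.24 above them in PBS replicate 1, against 0.02 and 0.03 over all tested genes.

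**Figure D2:**
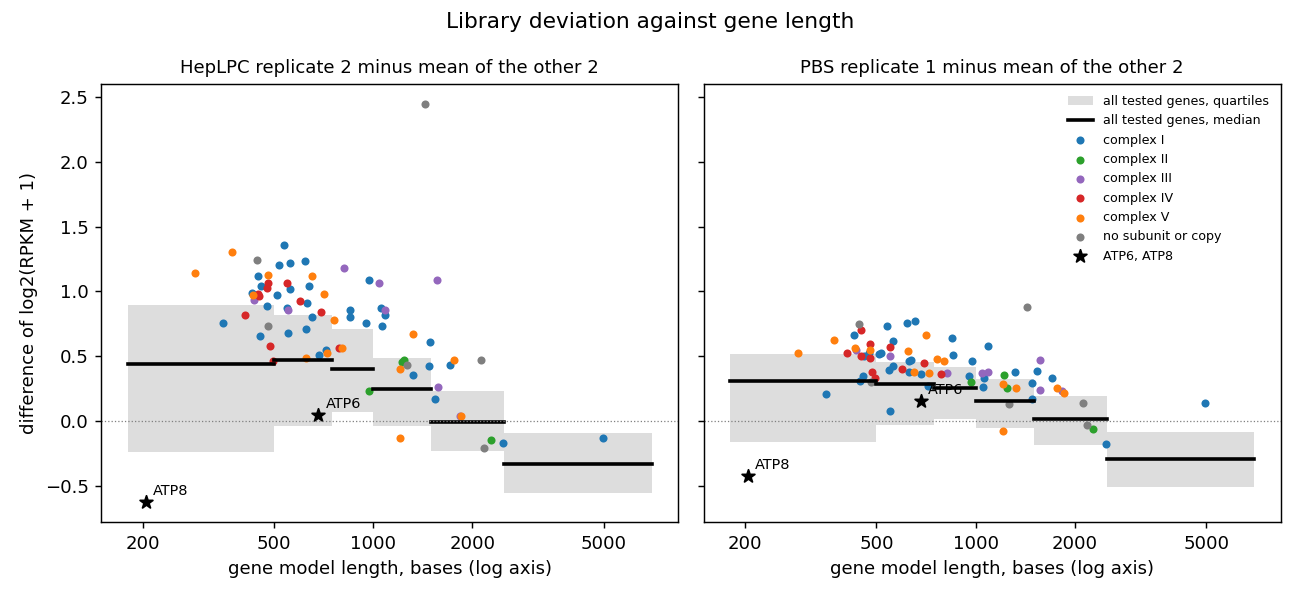
Deviation of HepLPC replicate 2 (left) and PBS replicate 1 (right) from the mean of the other 2 libraries of the group, in log2(RPKM + 1), against gene model length on a log axis. Points are members, coloured by complex, black lines are medians of all tested genes in a length bin and grey bands their quartiles. Most nuclear members lie above the line, and ATP8, the shortest, lies below 0 in both panels.

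Ndufb7, an accessory subunit of the complex I membrane arm, stood highest above its group in HepLPC replicate 2 among subunits, and in PBS replicate 1 Ndufb8 and Ndufc1 stood higher. It had 58.2, 170.0 and 73.9 RPKM in HepLPC, 94.8, 56.2 and 56.9 RPKM in PBS and 78.7, 76.9 and 68.3 RPKM in normal livers. Atp5e, the smallest subunit of the ATP synthase head, had 266, 679.9 and 283 RPKM in HepLPC, 408, 274 and 256 RPKM in PBS and 270.4, 327 and 306 RPKM in normal livers. In both genes the second HepLPC library and the first PBS library were above every normal library, and the other cirrhotic libraries were not. Long members did not share it: Ndufs1, the large iron-sulfur subunit of complex I with 2478 bases, had 43.6, 39.2 and 44.6 RPKM in HepLPC, 42.1, 47.6 and 47.5 RPKM in PBS and 42.4, 40.6 and 50.2 RPKM in normal livers. Its groups overlapped throughout.

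The comparison of PBS with normal livers asked how injury and injection together changed the subunits. No member was called in either direction (0 higher and 0 lower by limma at an adjusted p under 0.05), while 10.4% of all tested genes were called higher and 0.944% lower. At an unadjusted p under 0.05 the counts were also 0 and 0 of the 80. The median nuclear member differed by -0.03 on log2(RPKM + 1), with 47 of 78 below 0, against 0.18 over all tested genes and 0.18 over tested genes of 1000 bases or less. Differences ranged from -0.30 (Ndufa12) to 0.08 (Ndufa10) in complex I, -0.19 to -0.06 in complex II, -0.21 to 0.09 in complex III, -0.19 to 0.05 in complex IV and -0.18 to 0.10 in complex V.

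PBS replicates 2 and 3 were low for most subunits. Their own deviations from the rest of the group, PBS replicate 1 included, were related to length with the opposite sign (Spearman 0.313 and 0.519 over the nuclear members). Replicate 1 enters each of these deviations, so the opposite sign follows in large part from its own trend. They do not show by themselves a length trend in replicates 2 and 3. Tested genes of 1000 bases or less had a median of 106 and 111% of the mean of normal livers in these libraries, against 120.5 and 124% over all tested genes, and the nuclear members lay below both. Both were below every normal library in 48 of the 80 members, against 8.41% of all tested genes. They were both above every normal library in 1 member, Cox7a2l, against 54.3% of all tested genes. Cox7a2l was named for that count, with 56.8, 51.1 and 52.2 RPKM in PBS and 44.7, 47.6 and 41.5 RPKM in normal livers. The 48 held 20 of 34 complex I members, 3 of 4 in complex II, 7 of 8 in complex III, 10 of 11 in complex IV and 8 of 15 nuclear members of complex V.

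In the limma fit without PBS replicate 1 and HepLPC replicate 2, 11 members were called lower and 0 higher in PBS than in normal livers, against 2.45% lower and 26% higher over all tested genes. In that fit the median nuclear member differed by -0.19, with 70 of 78 below 0, against 0.24 over all tested genes. Of the 1215 tested genes of 1000 bases or less, 55 were called lower and 184 higher there, with a median of 0.11. Leaving out PBS replicate 1 alone gave the same median nuclear difference, -0.19, but 0 members called lower. HepLPC replicate 2 is not part of this comparison, but it enters the spread that the model shares between groups. The 11 calls therefore depended on that spread, with 2 PBS libraries left. With all 9 libraries kept and a length trend removed from each, 7 members were called lower and 0 higher, against 4.66% and 5.9% over all tested genes. There the median was -0.27, with 78 of 78 below 0, against -0.03 over all tested genes. The removal also recentred each library, so the median over all tested genes fell from 0.18 with the values as deposited. Over tested genes of 1000 bases or less it fell from 0.18 to -0.06, and the long member Ndufs1 went from 0.05 to -0.18. These fits were alternatives to the one with all 9 libraries as deposited, in which none of these members was called.

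**Figure D3:**
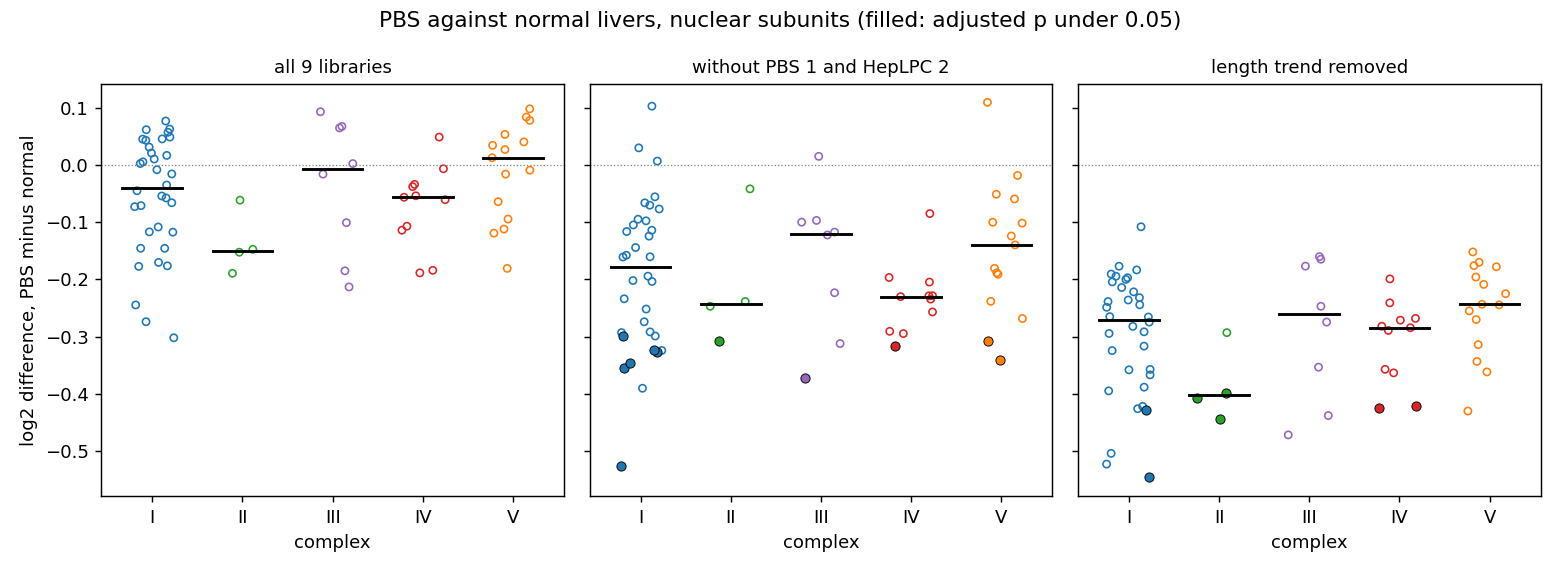
Difference of PBS minus normal livers in log2(RPKM + 1) for each nuclear subunit, by complex, in 3 limma fits. Bars are medians and filled points have an adjusted p under 0.05, of which the panels hold 0, 11 and 7, all of them below 0.

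Complex I members made up 6 of the 11 calls, near their share of the nuclear members (34 of 78). Ndufc1, a small membrane-arm subunit, had 148, 87.7 and 85.9 RPKM in PBS and 116, 137 and 124 RPKM in normal livers. It differed by -0.53 (SE 0.11, adjusted p = 0.0145) without PBS replicate 1 and HepLPC replicate 2. With all 9 libraries it differed by -0.27 (SE 0.33, adjusted p = 0.639). PBS replicate 1 was above every normal library and the other 2 were below them. Ndufa12, an accessory subunit of the arm that takes electrons from NADH, was low in all 3 PBS libraries. Like Cox6b1 it is a low row for a subunit, with 81 to 163 recovered reads per library, so its level is uncertain. It had 8.26, 7.76 and 7.82 RPKM in PBS and 9.85, 10.5 and 9.74 RPKM in normal livers, with no overlap of the groups. Its difference was -0.30 (SE 0.18, adjusted p = 0.314) with all libraries, -0.33 (adjusted p = 0.0308) without PBS replicate 1 and HepLPC replicate 2, and -0.55 (adjusted p = 0.0151) after removal of the length trend.

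Ndufv2, an iron-sulfur subunit of the NADH-oxidising module, had 161, 111 and 114 RPKM in PBS and 138, 136 and 156 RPKM in normal livers. PBS replicate 1 was above every normal library and the others were below them. In the fit of 7 libraries it was called at -0.35 (adjusted p = 0.0408). The accessory subunits Ndufb11 and Ndufb6 were called in the same fit at -0.32 and -0.30 (adjusted p = 0.0326 and 0.0486). Ndufb10, another membrane-arm subunit, was called only with the length trend removed, at -0.43 (adjusted p = 0.0303), against -0.30 (adjusted p = 0.0554) in the fit of 7 libraries. Ndufs1 differed by 0.05 with all libraries and 0.10 with 7 (adjusted p = 0.846 and 0.489).

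Complex II, succinate dehydrogenase, also works in the tricarboxylic acid cycle, and all 4 subunits had lower means in PBS livers. Sdhd, a membrane anchor, had 136, 105 and 108 RPKM in PBS and 127, 138 and 131 RPKM in normal livers. Sdhb, the iron-sulfur subunit, had 148, 124 and 117 RPKM in PBS and 141, 147 and 141 RPKM in normal livers. In each of them PBS replicates 2 and 3 lay below the normal libraries and replicate 1 did not. Sdhd differed by -0.19 with all libraries (adjusted p = 0.497), -0.31 with 7 (adjusted p = 0.0399) and -0.44 with the length trend removed (adjusted p = 0.0402). Sdhb and the other anchor, Sdhc, were called with the length trend removed, at -0.40 and -0.41 (adjusted p = 0.0414 and 0.0459), while in the fit of 7 libraries their adjusted p values were 0.0903 and 0.0977. Sdha, the long flavoprotein that oxidises succinate, had 107, 115 and 107 RPKM in PBS and 114, 109.9 and 119.7 RPKM in normal livers and was called in none of the 3 fits.

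In complex III, Uqcrq, which sits beside cytochrome b, was called lower in the fit of 7 libraries at -0.37 (SE 0.11, adjusted p = 0.0479). It had 119, 91.8 and 78.8 RPKM in PBS and 101, 119 and 112 RPKM in normal livers, with replicate 1 of PBS above every normal library. The Rieske iron-sulfur protein Uqcrfs1, the only catalytic subunit of the complex matched by name, had 144, 113 and 108 RPKM in PBS and 133, 130.5 and 149 RPKM in normal livers and differed by -0.31 (adjusted p = 0.0510) in that fit. Uqcrc2, a large core protein, differed by 0.09 with all libraries and 0.02 with 7.

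In complex IV, 11 of 11 subunits were below 0 in the fit of 7 libraries. Cox5b, a nuclear subunit facing the matrix, had 228, 171 and 178 RPKM in PBS and 221, 222 and 211 RPKM in normal livers. Cox8a, the liver form of a small membrane subunit, had 229.9, 186 and 179 RPKM in PBS and 215, 241 and 217 RPKM in normal livers. For both genes PBS replicates 2 and 3 were below every normal library. Cox5b differed by -0.32 with 7 libraries and -0.42 with the length trend removed (adjusted p = 0.0462 and 0.0316). Cox8a was called only with the trend removed, at -0.42 (adjusted p = 0.0251), and not in the fit of 7 libraries, at -0.29 (adjusted p = 0.0804).

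In ATP synthase, Atp5g3, a gene for the proton-carrying c ring, had 301, 214 and 216 RPKM in PBS and 266, 279.6 and 273 RPKM in normal livers. Atp5j2, subunit f of the membrane sector, had 348, 239 and 231 RPKM in PBS and 286, 296 and 292 RPKM in normal livers. Both showed a high PBS replicate 1 and low replicates 2 and 3, and both were called in the fit of 7 libraries, at -0.34 and -0.31 (adjusted p = 0.0479 and 0.0416). Atp5b, the catalytic beta subunit and the highest-expressed nuclear member, had 702, 596 and 579.9 RPKM in PBS and 585, 602 and 640.4 RPKM in normal livers. Its partner Atp5a1, the alpha subunit, had 369, 314 and 321 RPKM in PBS and 335, 329 and 328 RPKM in normal livers. Their differences with 7 libraries were -0.05 and -0.06 (adjusted p = 0.724 and 0.630). Atp5f1, subunit b of the peripheral stalk, averaged 12.9 ± 1.31 RPKM in PBS livers and 12.1 ± 0.984 RPKM in normal livers (SD, n = 3 each), far below its partners, and was the complex V member with the highest difference in that fit, 0.11 (adjusted p = 0.490).

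HepLPC and PBS livers both had cirrhosis and an injection, and were compared to ask what the injected cells changed. No member was called (0 higher and 0 lower by limma), while 0.135% of all tested genes were called higher and 2.93% lower. At an unadjusted p under 0.05 there was 1 member higher, Ndufa12, and 0 lower. Against PBS livers, HepLPC livers had a median difference of -0.15 over all tested genes and -0.04 over those of 1000 bases or less. The median nuclear member was 0.17 higher in HepLPC livers, with 66 of 78 above 0. Without HepLPC replicate 2 this median was -0.08, and without PBS replicate 1 as well as HepLPC replicate 2 it was 0.05, so its sign changed when HepLPC replicate 2 alone was left out.

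Ndufa12 had 8.94, 15.3 and 9.40 RPKM in HepLPC and 8.26, 7.76 and 7.82 RPKM in PBS livers. All 3 HepLPC values were above all 3 PBS values, with replicate 2 far above the other HepLPC libraries. The difference was 0.41 (SE 0.18, unadjusted p = 0.0458, adjusted p = 0.300), and 0.21 (adjusted p = 0.230) in the fit of 7 libraries. Ndufc1 gave the largest difference of a subunit, 0.51 (adjusted p = 0.498), from 106, 263 and 116 RPKM in HepLPC and 148, 87.7 and 85.9 RPKM in PBS livers. Its HepLPC replicates 1 and 3 were above PBS replicates 2 and 3 and below PBS replicate 1.

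Some subunits of complexes III and V were also high in HepLPC replicate 2. Uqcrb, a ubiquinone-binding subunit of complex III, had 29.3, 65.5 and 32.5 RPKM in HepLPC and 36.2, 28.1 and 27.6 RPKM in PBS livers, a difference of 0.37 (adjusted p = 0.532). Atp5i, subunit e of ATP synthase, had 154, 353 and 165 RPKM in HepLPC and 206, 145 and 142 RPKM in PBS livers, a difference of 0.36 (adjusted p = 0.592). Atp5l, subunit g, had 339, 776 and 370.4 RPKM in HepLPC and 471, 334 and 311 RPKM in PBS livers. In these 3 genes HepLPC replicate 2 was the highest library and HepLPC replicates 1 and 3 were below PBS replicate 1. At the other end, Uqcrc2 had 115, 118 and 114 RPKM in HepLPC and 146, 121 and 126 RPKM in PBS livers, a difference of -0.18 (SE 0.12, adjusted p = 0.508), with all 3 HepLPC libraries below all 3 PBS libraries.

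HepLPC livers were also set against normal livers, a comparison that joins cirrhosis, injection and cells. No member was called (0 higher and 0 lower by limma), and few genes of any kind were: 0.0449% of all tested genes higher and 0.036% lower. The median nuclear member was 0.12 higher in HepLPC livers with all libraries, with 65 of 78 above 0, against 0.05 over all tested genes. Over the 1215 tested genes of 1000 bases or less it was 0.17, with 898 above 0. Without HepLPC replicate 2 the median nuclear member was at -0.12, against 0.09 over all tested genes and 0.0046 over those of 1000 bases or less. HepLPC replicates 1 and 3 were both below every normal library in 34 of the 80 members, against 7.05% of all tested genes, and both above in 2 (Atp5a1 and Ndufa10), against 27.5%. With all 3 HepLPC libraries the groups did not overlap in 4 members. ATP6, ATP8 and Ndufa10l1 were lower, against 3.51% of all tested genes, and Atp5a1 was higher, against 12.3%. Atp5a1 had 337, 349 and 342 RPKM in HepLPC and 335, 329 and 328 RPKM in normal livers, a difference of 0.05 (SE 0.12, adjusted p = 0.929).

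The mitochondrially encoded members did not share the high level of the nuclear members in HepLPC replicate 2. ATP6, the stator subunit that forms the proton channel with the c ring, had 10886, 11013 and 10478 RPKM in HepLPC, 13815, 11453 and 13435 RPKM in PBS and 13166, 15308 and 11953 RPKM in normal livers. HepLPC libraries were below every PBS and every normal library, while PBS and normal libraries overlapped. The difference of HepLPC from normal livers was -0.31 (SE 0.19, unadjusted p = 0.126, adjusted p = 0.682), and -0.33 (adjusted p = 0.401) in the fit of 7 libraries. From PBS livers HepLPC livers differed by -0.25 (SE 0.19, adjusted p = 0.546).

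ATP8, a small membrane subunit whose reading frame overlaps that of ATP6, had 1428, 904 and 1361 RPKM in HepLPC, 1289.7, 1650.0 and 1808 RPKM in PBS and 1816, 1898 and 1472 RPKM in normal livers. Every HepLPC value was below every normal value, with replicate 2 the lowest of all libraries, and PBS replicate 1 was below HepLPC replicates 1 and 3. The HepLPC difference from normal livers was -0.51 (SE 0.22, unadjusted p = 0.0446, adjusted p = 0.533), and -0.30 (SE 0.15, adjusted p = 0.370) in the fit of 7 libraries. The PBS difference from normal livers was -0.13 (SE 0.22, adjusted p = 0.736). ATP8 and Ndufa10l1 were the members with an unadjusted p under 0.05 for HepLPC against normal livers (2 lower and 0 higher), and neither passed the adjustment.

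The ratio of ATP8 to ATP6 RPKM singled out the same libraries as the nuclear genes did. It was 0.0821 in HepLPC replicate 2 and 0.0934 in PBS replicate 1. It lay at 0.131 and 0.130 in HepLPC replicates 1 and 3, at 0.144 and 0.135 in PBS replicates 2 and 3, and at 0.138, 0.124 and 0.123 in normal livers. ATP8 is the shorter of the 2 (204 against 681 bases), so its deviation in these libraries ran opposite to that of the short nuclear members. The 13 mitochondrial protein rows together took 5.39% to 7.17% of the recovered reads of a library, and ATP6 was 74.1 times the median nuclear member in HepLPC replicate 2, against 105 to 163 times in the other 8 libraries.

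**Figure D4:**
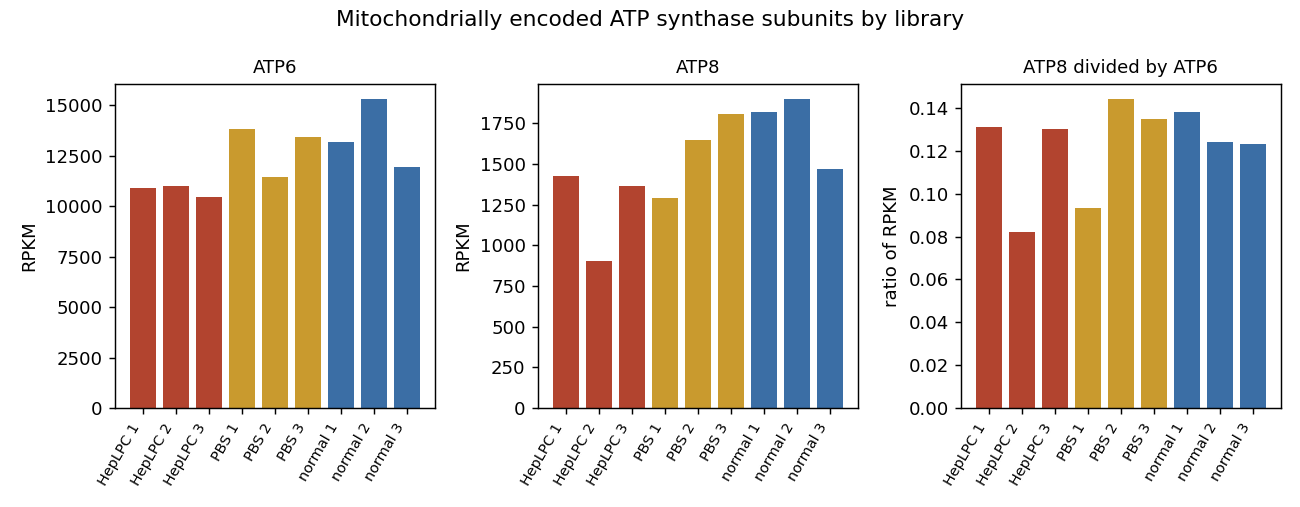
RPKM of ATP6 and ATP8 and the ratio of ATP8 to ATP6 in each library, 1 bar per library, with axes from 0. HepLPC libraries have the lowest 3 ATP6 values, and the ratio is lowest in HepLPC replicate 2 (0.0821) and PBS replicate 1 (0.0934).

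Ndufa10l1, a copy of the complex I accessory subunit gene Ndufa10, varied most of all members. It had 0.0722, 4.65 and 0 RPKM in HepLPC, 6.57, 14.8 and 0.0706 RPKM in PBS and 7.27, 6.17 and 7.05 RPKM in normal livers. These values rest on 2, 129 and 0 recovered reads in HepLPC, 168, 438 and 2 in PBS and 208, 193 and 217 in normal livers. HepLPC replicates 1 and 3 and PBS replicate 3 were at or near 0, while the 3 normal libraries were close to each other. Ndufa10 itself had 22.6, 20.1 and 21.5 RPKM in HepLPC, 22.8, 17.8 and 23.8 RPKM in PBS and 20.4, 20.8 and 19.2 RPKM in normal livers. It was lowest in PBS replicate 2, where the copy was highest. The sum of both rows ranged from 21.5 RPKM in HepLPC replicate 3 to 32.6 RPKM in PBS replicate 2. For HepLPC against normal livers the copy differed by -2.10 (SE 0.93, adjusted p = 0.534).

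**Figure D5:**
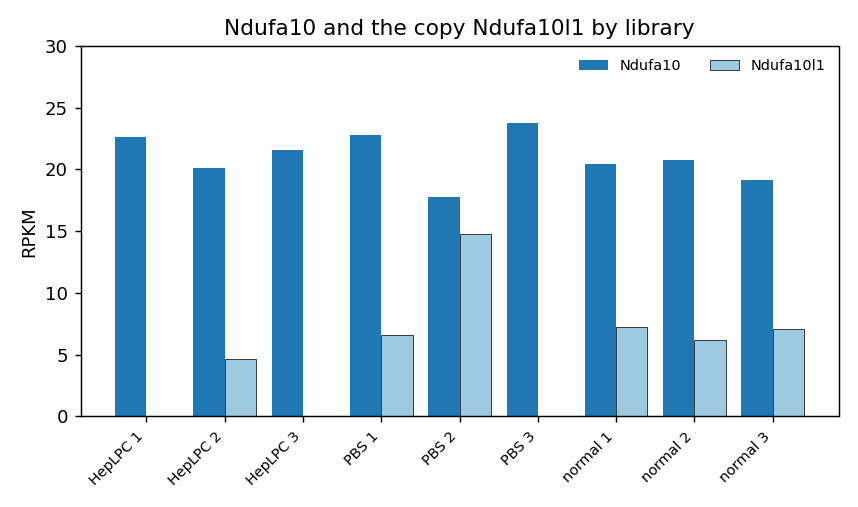
RPKM of Ndufa10 and of its copy Ndufa10l1 in each library, with the axis from 0. The copy stands between 4.65 and 14.8 RPKM in 6 libraries and at 0.0722 RPKM or less in HepLPC replicates 1 and 3 and PBS replicate 3, where its bar cannot be seen.

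Subunits of each complex other than complex II varied together across the 9 libraries. The correlations are of deviations from the group means, describe genes that share these libraries, HepLPC replicate 2 included, and were not computed without it. The median Pearson correlation between 2 members was 0.923 in complex I (561 pairs), 0.132 in complex II (6 pairs), 0.944 in complex III (28 pairs), 0.949 in complex IV (55 pairs) and 0.865 in complex V with ATP6 and ATP8 (136 pairs). The closest pairs were Ndufc2 and Ndufv1 (0.998), Sdhc and Sdhd (0.935), Uqcr10 and Uqcrh (0.992), Cox7a2 and Ndufa4 (0.993), and Atp5e and Atp5i (0.998). In complex II, Sdha was not high in HepLPC replicate 2, with 111, 96.8 and 104 RPKM in the HepLPC libraries.

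Genes that build or feed the chain were read from 7 lists. Of 45 tested assembly factors 1 was called, higher in PBS than in normal livers, against 10.4% of all tested genes. It was Ndufaf6, needed for complex I assembly, at 7.97 ± 1.10 RPKM in HepLPC, 10.7 ± 2.64 in PBS and 4.37 ± 1.29 in normal livers (SD, n = 3 each; PBS against normal 1.12, adjusted p = 0.0130). None of 28 genes of mitochondrial DNA expression, 11 regulators, 19 electron carriers and entry enzymes or 9 superoxide and peroxide enzymes was called in any comparison (0 by limma in each). At an unadjusted p under 0.05 these 4 lists held 4, 1, 3 and 2 genes for PBS against normal livers, 0, 0, 4 and 1 for HepLPC against PBS livers and 1, 0, 0 and 1 for HepLPC against normal livers. Over all 11124 tested genes the same threshold was met by 2679 higher and 363 lower, by 234 higher and 1558 lower, and by 816 higher and 220 lower, in the same order of comparisons. The matrix transcription factor Tfam was at 22.7 ± 3.89, 21.4 ± 0.345 and 21.5 ± 0.371 RPKM in HepLPC, PBS and normal livers. The coactivator Ppargc1a lay below the filter.

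Among 15 tested inner-membrane carriers, uncouplers and porins, 2 were called higher in PBS than in normal livers, a share near the 10.4% of all tested genes. Slc25a4, the ADP/ATP exchanger typical of heart and muscle, had 5.62, 7.01 and 6.50 RPKM in HepLPC, 20.7, 12.1 and 20.3 RPKM in PBS and 3.85, 4.66 and 3.11 RPKM in normal livers. The 3 groups did not overlap. It differed by 1.92 (SE 0.21, adjusted p = 0.000748) in PBS against normal livers and by -1.31 (SE 0.21, adjusted p = 0.0134) in HepLPC against PBS livers, the only call of the list there. Ucp2, an inner-membrane carrier abundant in macrophages, had 11.9, 11.0 and 16.3 RPKM in HepLPC, 18.7, 24.1 and 19.6 RPKM in PBS and 13.1, 11.6 and 10.4 RPKM in normal livers and differed by 0.78 (adjusted p = 0.0181) in PBS against normal livers. Macrophage markers summed to 117 to 172 RPKM in HepLPC, 159 to 212 in PBS and 101 to 137 in normal livers, and their part in the Ucp2 value was not tested. Of 18 tricarboxylic acid cycle genes 1 was called, Idh3a, the catalytic subunit of isocitrate dehydrogenase, with 13.9 ± 1.08 RPKM in PBS and 7.37 ± 0.369 RPKM in normal livers (SD, n = 3 each; 0.83, adjusted p = 0.00411). The electron shuttle cytochrome c (Cycs) was at 113 ± 30.7 RPKM in HepLPC, 105 ± 6.96 in PBS and 119 ± 18.7 in normal livers (PBS against normal adjusted p = 0.642).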

How the data were processed

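Per the labels' protocols, total liver RNA was isolated with TRIzol, treated with DNase I and made into TruSeq libraries for HiSeq or NovaSeq instruments. The authors deposited RPKM values, per the file headers, in 40154 gene rows for each of the 9 libraries. HISAT2 and StringTie are named in the submitters' processing notes, beside hg19, a human build, although gene symbols are those of rat, so the build, the annotation and any use of strand are uncertain, and no coordinates come from the files. Of the 97 member rows, 95 matched the RefSeq GRCr8 table by symbol or synonym.

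Groups and replicate numbers came from the sample titles. Tests were 2-sided moderated tests of limma 3.58.1 in R 4.3.3, with a mean-variance trend, on log2(RPKM + 1). They covered the 11124 genes that reached 1 RPKM in 3 libraries, in a single model of the 9 libraries with 6 residual degrees of freedom. A call is an adjusted p under 0.05, by Benjamini and Hochberg's method over those 11124 genes. Differences are on the log2(RPKM + 1) scale and understate changes of low genes. The procedure was tested on simulated data.

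Depth and gene model lengths were worked out from the RPKM values, which gave whole reads within 0.01 read for 20959 of 20959 genes above 0 in 3 or more libraries, and whole lengths for 99.8% of them. The alternatives were another pseudocount (0.1), no filter, median of ratios and quantile scaling, removal of a loess trend against length from each library, only the 2 groups compared, a replicate block, and leaving out libraries. Members and lists were chosen with earlier results of these data known. Genes named in the text are ATP6 and ATP8, the extremes in level and difference of each complex, called members in any fit shown, isoform pairs and called list genes. Ndufb7, Ndufv2, Ndufb6, Ndufb10, Ndufb11, Cox8a, Atp5j2, Uqcrq, Uqcrfs1, Atp5a1 and Cox7a2l were named after their values were seen. A called complex I member is not reported here.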

Additional observations from a re-analysis of the deposited data

How the results depend on the processing

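The counts of members called in the 3 comparisons, in both directions, were 0 with every library kept and as deposited, and 17 settings were tried. For PBS against normal livers, 11 members were called lower without PBS replicate 1 and HepLPC replicate 2 together and 7 after removal of the length trend, while leaving out any single library gave 0 in every comparison and direction. For PBS against normal livers, the median over all tested genes went from 0.18 to -0.01 with median of ratios scaling. With the length trend removed it went to -0.03. The median difference of the nuclear members was -0.27 in both of these fits. Leaving out 1 library at a time, this median ranged from -0.19 (without PBS replicate 1) to 0.04 (without PBS replicate 2). For HepLPC against PBS livers the range was -0.08 (without HepLPC replicate 2) to 0.33, and for HepLPC against normal livers -0.12 (without HepLPC replicate 2) to 0.27. The fit with all libraries gave 0.17 and 0.12, and after removal of the length trend the medians were 0.22 and -0.05. The pooled SD of the library medians was 0.21 for PBS against normal, 0.33 for HepLPC against PBS and 0.26 for HepLPC against normal livers. Only the -0.27 values moved by more than this SD. In the comparisons with HepLPC livers the SD includes HepLPC replicate 2 itself. Both of those medians changed sign when that library alone was left out, so they were not stable. The cause was not tested.

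Replicate numbers are shared between groups, but same-numbered libraries did not deviate together throughout: over the 9 same-numbered pairs the correlation ranged from -0.412 (PBS and HepLPC replicate 1) to 0.31 (PBS and HepLPC replicate 3), with 3 pairs over 0.1, against 0.608 between HepLPC replicate 2 and PBS replicate 1. With a replicate block, 0 members were called in each comparison, and the calls over all genes were 787 (PBS against normal), 198 (HepLPC against PBS) and 1 (HepLPC against normal), against 1262, 341 and 9 without it. Rows of under 1 RPKM, such as Ndufs6 with 1 to 11 reads a library, are limited by depth.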

Other observations

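The other 11 protein rows of mitochondrial DNA were read beside ATP6 and ATP8, and none was called in any comparison (0 by limma). At an unadjusted p under 0.05 the count was 1, ND2, for HepLPC against normal livers, and 0 in the other 2 comparisons. ND2, a complex I subunit of the proton-pumping arm, had 3999, 3179.8 and 4350.4 RPKM in HepLPC, 4237, 4946 and 5042 RPKM in PBS and 5394, 5648 and 5001 RPKM in normal livers (HepLPC against normal -0.49, limma adjusted p = 0.443). Every HepLPC value of ND2 was below every normal value. ND1, which borders the ubiquinone site, had 4708, 4006 and 4197 RPKM in HepLPC, 4826, 4911 and 5353 RPKM in PBS and 5538, 5868 and 5076 RPKM in normal livers (difference -0.35, adjusted p = 0.538). COX1, the catalytic subunit of complex IV, had 14973, 13108 and 11713 RPKM in HepLPC and 13807, 14715 and 12623 RPKM in normal livers, with overlapping groups.

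Short mitochondrial rows went in opposite directions in HepLPC replicate 2. ND3, of 348 bases, had 2193, 3356 and 1328 RPKM in HepLPC livers, with replicate 2 the highest of the 9 libraries. ND4L, of 297 bases, had 1404, 526 and 1355 RPKM in HepLPC livers, with replicate 2 the lowest of the 9. ND6, the subunit encoded on the other strand of mitochondrial DNA, had 1536, 2266 and 1267 RPKM in HepLPC livers, again highest in replicate 2. The row of ND4, whose transcript is shared with ND4L, held only 101, 94.8 and 58.0 RPKM in HepLPC, 78.0, 61.0 and 68.6 RPKM in PBS and 85.4, 96.2 and 101 RPKM in normal livers, far under its neighbours, and no source used here gives a reason.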
